A study of Mus musculus with 7 samples.

Results

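The microRNAs (miRNAs) mmu-miR-211-5p and mmu-miR-204-5p are written miR-211-5p and miR-204-5p from here on. They are 2 of the 1978 mature names listed for CD8+ T cells sorted from mouse spleen, of which 878 had a count after rounding. They were chosen by name: miR-211-5p because it was lower in one T cell subset than in the other, and miR-204-5p because it carries the same seed. Both names were found, each on 1 line of the deposited table. Of the 2, miR-211-5p passed the filter on low counts (10 CPM, the count scaled to a common library size, or more in 2 or more libraries) and was tested among 288 miRNAs, and miR-204-5p did not pass it.

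All libraries came from gBT-I mice, a line whose T cells bear 1 transgenic receptor, and all cells were enriched with beads against CD8 and sorted. Virtual memory (VM) cells were CD44hi CD122hi, a phenotype of memory reached without meeting foreign antigen, and true naive (TN) cells were CD44lo CD122lo. The groups were adult VM (2 libraries), adult TN (2), neonatal VM (2) and neonatal TN (1). The sources used here give neither the age in days nor whether replicates are separate animals, so p-values reflect only how far these libraries lie apart, and that spread may be technical. Values of the single neonatal TN library have no SD. Library totals ran from 1577031 to 3278451 counts. Of the 4 miRNAs fixed as T cell markers, all were tested, with miR-150-5p at 62296 CPM or more and miR-142a-5p at 43375 CPM or more in every library.

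A miRNA is cut from a hairpin precursor, and the bases near its 5′ end, the seed, pair with sites in target messenger RNAs. MiR-211 is best known from pigment cells, where it is made together with its host gene Trpm1, which encodes a cation channel that is also used by bipolar cells of the retina. MiR-204 lies in the related channel gene Trpm3 and is known from the retinal pigment epithelium and other tissues of the eye. Because both share a seed, they are expected to pair with overlapping sets of targets.

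The sequences show how near the pair stands, with the seed (bases 2 to 8 from the 5′ end) in capitals, as given by RefSeq on GRCm38.p6:
miR-211-5p: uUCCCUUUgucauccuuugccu
miR-204-5p: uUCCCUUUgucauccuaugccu
miR-7670-3p: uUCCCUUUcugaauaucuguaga
Of the 1679 mature names in that reference, these 3 hold this seed. The 5p arms of miR-211 and miR-204 agree at 21 of 22 bases and differ only by U17A, counted from the 5′ end of miR-211-5p, outside the seed. MiR-7670-3p matches in the seed and was nearly absent, at 0 to 6 counts per library.

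The hairpins, with both mature arms in capitals, are shown because the 3p arms and the loops tell the precursors apart where the 5p arms hardly do:
Mir211: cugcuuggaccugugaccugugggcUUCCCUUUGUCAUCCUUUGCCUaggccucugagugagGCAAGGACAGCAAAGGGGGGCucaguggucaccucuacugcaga
Mir204: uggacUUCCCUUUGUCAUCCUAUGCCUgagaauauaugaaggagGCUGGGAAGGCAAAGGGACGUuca
The Mir211 hairpin of 106 bases lies on the plus strand at chr7:64205806-64205911 and the Mir204 hairpin of 68 bases on the plus strand at chr19:22750605-22750672 (GRCm38). The 3p arms, each of 21 bases, agree at 14 bases in their best alignment. In GENCODE M21, Mir211 lies in an intron of 8 of 13 protein-coding Trpm1 transcripts, on the strand of the gene, and outside the other 5, and in a transcript of 27 exons it lies in intron 6, which spans 3682 bases. Mir204 lies in an intron of 15 protein-coding Trpm3 transcripts, also on the strand of the gene, and outside 2 others, and in a transcript of 27 exons it lies in intron 6, of 33462 bases. The nearest other annotated miRNA gene to Mir211 is Mir6416, 0.0441 Mb away, both of whose arms were at 0 counts in all 7 libraries.

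MiR-211-5p was abundant in TN cells and scarce in VM cells at both ages. Its deposited counts were 1747.5 and 2864.5 in the adult TN libraries, 3851.5 in the neonatal TN library, 479.5 and 329 in the adult VM libraries and 172.5 and 249 in the neonatal VM libraries. By rank of count it stood between place 52 and place 58 in the TN libraries and between place 113 and place 144 in the VM libraries. As a share of all counts in a library it took 0.129% in neonatal TN (95% Wilson interval 0.125 to 0.133%) and 0.00828% in neonatal VM replicate 2 (0.00732 to 0.00938%), the highest and the lowest of the 7 shares. Such intervals hold for counting error alone, because the reads carry no molecular identifiers and may be copies.

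In CPM scaled by trimmed-mean (TMM) factors, which set libraries to a common centre, miR-211-5p stood at 944 and 1226 in adult TN, 1199 in neonatal TN, 193 and 114 in adult VM and 85.1 and 65.1 in neonatal VM. All 3 TN libraries lay above all 4 VM libraries, and the lowest TN value was 4.88 times the highest VM value. The order of the groups was neonatal TN (1199), adult TN (1085 ± 199.9, SD, n = 2), adult VM (154 ± 56.2, n = 2) and neonatal VM (75.1 ± 14.1, n = 2). Under this scaling the neonatal TN library lay between the adult ones, and the 2 VM groups did not overlap. Scaled by library totals, the neonatal TN library (1292 CPM) lay above both adult ones (849.9 and 958 CPM), and the VM groups overlapped, so the order by age within each subset depends on the scaling. Replicates differed 1.70-fold in adult VM, 1.30-fold in adult TN and 1.31-fold in neonatal VM, so the adult VM level is the least certain of the 3.

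**Figure D1:**
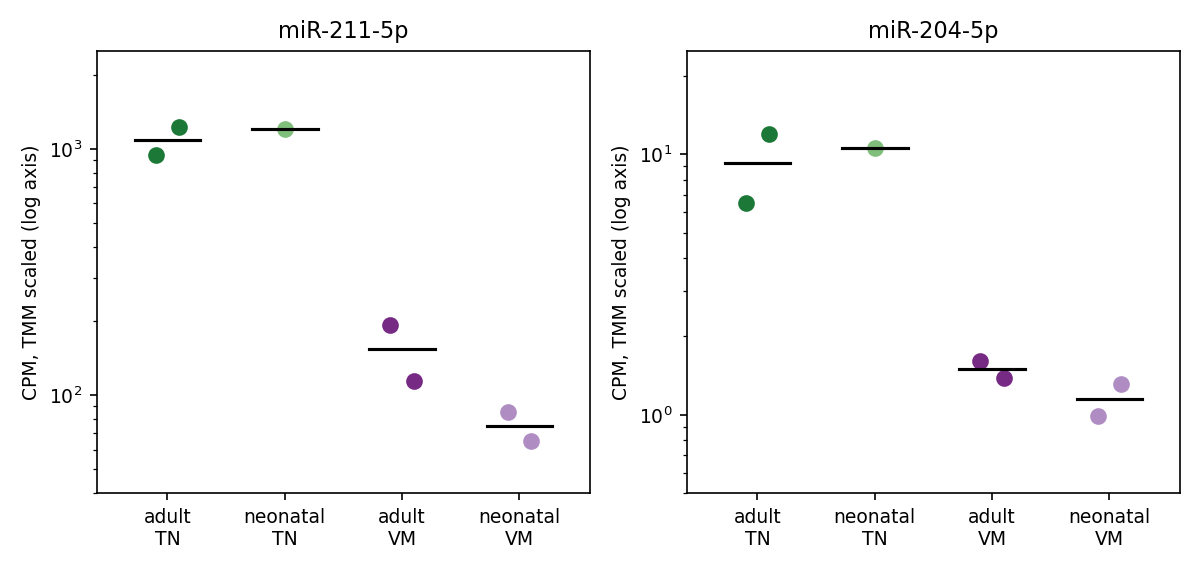
Levels of miR-211-5p (left) and miR-204-5p (right) in CPM scaled by TMM factors, on log axes, in the 4 groups; points are libraries and bars are group means. For both, every TN library lies above every VM library, with miR-211-5p at 944 CPM or more in TN and 193 or less in VM.

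The fitted difference between VM and TN cells is a description here and not a test, since it is the contrast for which miR-211-5p was chosen. Over both ages the level in VM cells was 9.92-fold lower (log2 fold change -3.31, SE 0.31). In adult cells it was 7.07-fold lower (log2 fold change -2.82, SE 0.29) and in neonatal cells 16.0-fold lower (log2 fold change -4.00, SE 0.33, from 1 TN library). Ranked by log2 fold change among the 288 tested miRNAs, it stood at place 2 from the bottom over both ages and in adult cells, and at the very bottom in neonatal cells. Over both ages 24.7% of the tested miRNAs passed the edgeR quasi-likelihood test at an adjusted p of 0.05 (13.9% lower and 10.8% higher in VM cells). In adult cells 38.9% passed (15.6% lower and 23.3% higher), and in neonatal cells 9.72% (6.6% lower and 3.12% higher); nothing is read from these shares about miR-211-5p. In RNA from sorted cells in bulk, a lower level in every cell and a smaller share of cells that hold the miRNA cannot be told apart.

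MiR-204-5p followed the same order of subsets at a far lower level. Its deposited counts were 11.5 and 27.5 in adult TN, 33.5 in neonatal TN, 3.5 and 4 in adult VM and 1.5 and 5 in neonatal VM. After rounding to whole counts, its TMM-scaled CPM was 6.48 and 12.0 in adult TN and 10.6 in neonatal TN. It was 1.61 and 1.38 in adult VM and 0.990 and 1.31 in neonatal VM. All 3 TN libraries were above all 4 VM libraries here too, with the lowest TN value at 4.02 times the highest VM value. The counts are small: the 34 counts of the neonatal TN library, after rounding, have an exact 95% Poisson interval of 23.5 to 47.5, and the 2 counts of neonatal VM replicate 1 one of 0.242 to 7.22. In a fit without the filter on low counts, the log2 fold change of VM against TN was -2.80 over both ages (SE 0.53), -2.60 in adult cells (SE 0.70) and -3.04 in neonatal cells (SE 0.77). The same fit gave -3.28, -2.82 and -3.94 for miR-211-5p.

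MiR-204-5p made up 0.910% of the summed counts of both 5p arms over all libraries (89 of 9783, 95% Wilson interval 0.740 to 1.12%). The share was 0.867% in TN libraries (74 of 8538, 0.691 to 1.09%) and 1.20% in VM libraries (15 of 1245, 0.731 to 1.98%), so the intervals overlapped while the level of miR-211-5p differed several-fold. Over single libraries it ran from 0.682% in adult TN replicate 1 (0.390 to 1.19%) to 1.97% in neonatal VM replicate 2 (0.844 to 4.52%), and these intervals overlapped as well. The fractional part of the deposited counts was the same for both names in 7 of 7 libraries, 0.5 in 5 of them and 0 in the other two. How reads were divided between names that differ by U17A alone is not given in the sources used here. Whether counts of one name stem from molecules of the other was not tested, and the values of miR-204-5p are uncertain for that reason.

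**Figure D2:**
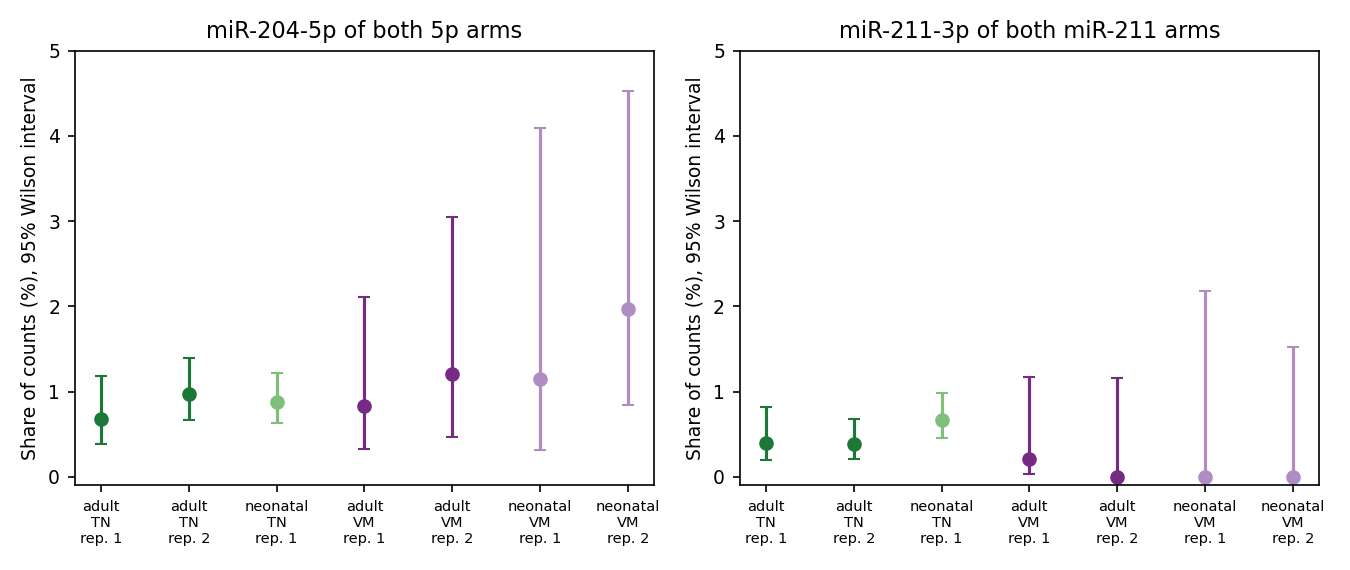
Left, miR-204-5p as a share of the counts of miR-204-5p and miR-211-5p; right, miR-211-3p as a share of the counts of both miR-211 arms; each point is a library, in percent, with its 95% Wilson interval. The share of miR-204-5p lies between 0.682% and 1.97% in all 7 libraries, with overlapping intervals, and miR-211-3p is below 1% in each.

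The opposite arms were far rarer, as is usual for the passenger strand of a hairpin. MiR-211-3p had 7 and 11 counts in adult TN, 26 in neonatal TN, 1 and 0 in adult VM and 0 in both neonatal VM libraries. Its counts were thus seen almost wholly in the TN libraries, where the 5p arm was also high. As a share of both arms it was 0.517% over the TN libraries (44 of 8508, 95% Wilson interval 0.385 to 0.693%) and 0.0812% over the VM libraries (1 of 1231, 0.0143 to 0.459%). In neonatal VM, 0 of 421 counts (a limit of 3 counts) allow a share of up to 0.713%, so a share as in TN cells was not detectable there at this depth. MiR-204-3p was at 0 in all 7 libraries, where the same limit allows at most 0.915 to 1.90 CPM of the library total.

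The comparison of neonatal with adult cells asked whether the level moves with age. MiR-211-5p was chosen for its subset difference, with earlier results of these data known, and the tests within VM cells and of the interaction use the same low VM values as that choice. Within VM cells miR-211-5p fell 2.05-fold in neonatal animals, from 193 and 114 CPM to 85.1 and 65.1 (log2 fold change -1.04, SE 0.28, 95% interval -1.66 to -0.41, edgeR adjusted p = 0.0104). In that comparison 53.8% of the 288 tested miRNAs passed, 30.9% lower and 22.9% higher in neonatal cells, so passing was not unusual, and 69 miRNAs had a more negative fold change. The call was lost when counts were scaled by library totals alone (log2 fold change -0.54, edgeR adjusted p = 0.127), where the adult libraries stood at 177 and 100 CPM and the neonatal ones at 109 and 82.8, and so overlapped. Under that scaling the median of all tested miRNAs lay at 0.43, against -0.08 under TMM. MiR-211-5p lay below the median by the same amount in both, a difference of -0.96 on the log2 scale. Rescaling shifts all fold changes of a comparison by nearly the same amount, so an equal gap cannot show whether the fall holds. The call was also lost without neonatal VM replicate 2 (log2 fold change -0.85). Without adult VM replicate 1 the fold change was smaller (-0.62).

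Within TN cells no difference with age was called for miR-211-5p, at 944 and 1226 CPM in adult and 1199 in neonatal cells (log2 fold change 0.14, SE 0.33, 95% interval -0.58 to 0.87, edgeR adjusted p = 0.748), while 47.9% of tested miRNAs passed (26.4% higher and 21.5% lower in neonatal cells). With 1 neonatal library the spread is taken from the other groups. The sign of this value depended on the setting, at -0.16 with upper quartile factors and 0.52 with library totals. Over both subsets, miR-211-5p did not pass (log2 fold change -0.53, SE 0.30, edgeR adjusted p = 0.170, against 53.8% of tested miRNAs that passed, 26.4% higher and 27.4% lower). Without the filter on low counts it did (log2 fold change -0.67, edgeR adjusted p = 0.0175, with 21.1% passing), and so it did without the neonatal TN library, where the fit rests on VM cells alone (-1.01, edgeR adjusted p = 0.0119).

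The test of the difference itself, whether the change with age in VM cells differs from that in TN cells, did not pass for miR-211-5p (log2 difference -1.18, SE 0.43, 95% interval -2.13 to -0.24, edgeR adjusted p = 0.118). Of all tested miRNAs, 7.99% passed this test, 6.25% with a negative and 1.74% with a positive difference. It passed without the filter on low counts (log2 difference -1.12, edgeR adjusted p = 0.0175, with 4.9% passing). Over the other settings its edgeR adjusted p reached 0.357. With 1 library left out, which leaves 1 library in a group, the log2 difference ran from -1.44 to -0.72.

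**Figure D3:**
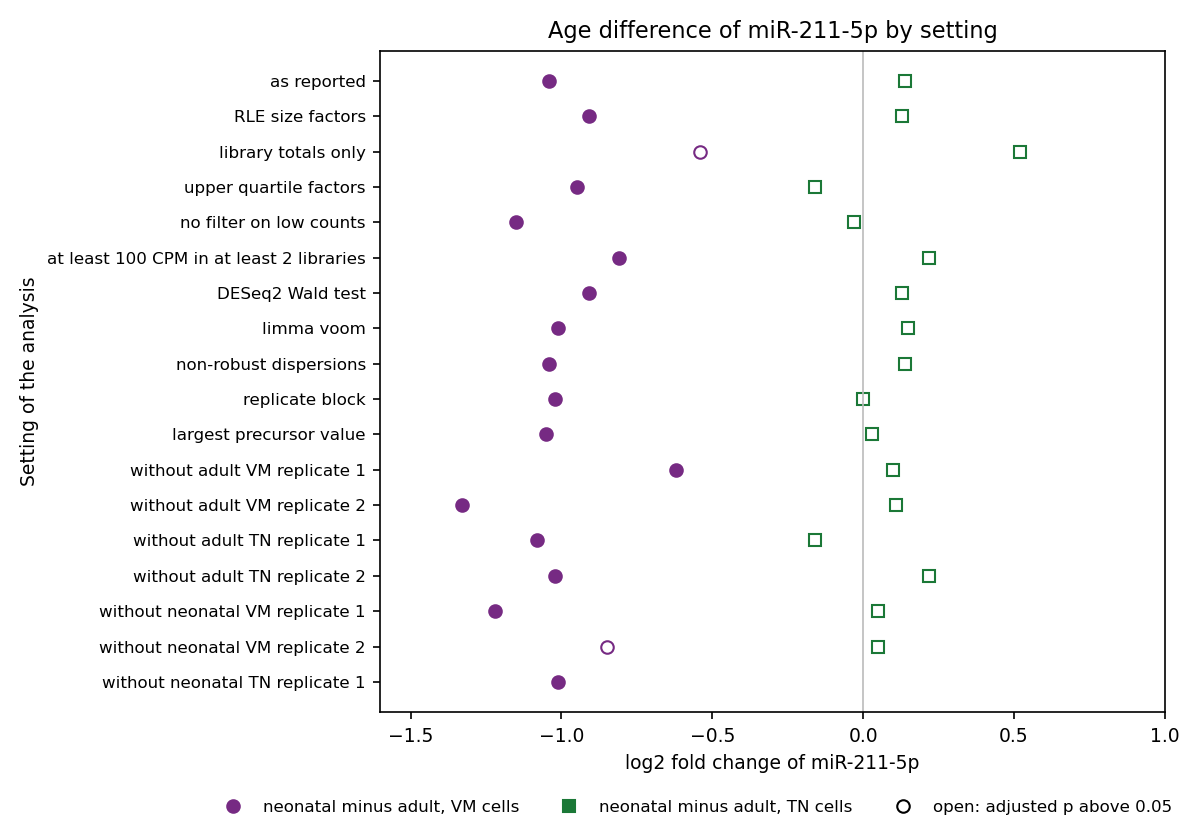
Log2 fold change of miR-211-5p between neonatal and adult cells in VM (circles) and TN cells (squares) under each setting named at the left; filled symbols have an adjusted p of at most 0.05. All VM values are negative, from -1.33 to -0.54, and 2 of them are open; all TN values are open and lie on both sides of 0.

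For miR-204-5p, no age comparison passed in the fit without a filter. The log2 fold changes were -0.44 in VM cells (SE 0.90, edgeR adjusted p = 0.826) and 0.01 in TN cells (SE 0.66, edgeR adjusted p = 1), where 20.2% and 17.1% of the 878 miRNAs with a count passed. The 95% interval in VM cells, -2.20 to 1.33, spans the fall of miR-211-5p, so a change of that size was not detectable at this depth.

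Markers of other cells were read beside these values. The list for neural, retinal and pigment cells was fixed for the tissues in which miR-211 and miR-204 are known: of its 8 members, miR-124-3p and miR-137-3p were at 0 in all 7 libraries and miR-9-5p was at 1.21 CPM or less. The summed level of the list was 7.28 to 12.1 CPM in TN and 12.8 to 30.4 CPM in VM libraries, most of it miR-219a-5p. In neonatal cells the sums lay close, at 12.1 CPM in TN and 12.8 and 18.8 CPM in VM. MiR-219a-5p, the only member tested, did not pass between VM and TN cells over both ages (log2 fold change 1.08, edgeR adjusted p = 0.0726). In adult cells it passed as higher in VM (1.55, edgeR adjusted p = 0.0205), where 23.3% of all tested miRNAs did. In neonatal cells it did not pass (0.44, edgeR adjusted p = 0.703). The part of such cells in the level of miR-211-5p was not tested. The summed level of the erythroid list was lower in neonatal than in adult VM cells, as miR-211-5p was. Its 5 members summed to 494 to 594 CPM in adult VM and 156 to 178 CPM in neonatal VM. In TN cells they summed to 243 to 325 CPM in adult and 446 CPM in neonatal libraries. Nearly all of this was miR-486a-5p and miR-486b-5p, the 2 that were tested, and both fell in neonatal VM cells (log2 fold changes -1.73 and -1.74, edgeR adjusted p = 7.38e-05 and 7.49e-05). Their levels were nearly equal in every library, as at 246 and 244 CPM in adult VM replicate 1. They are therefore not read as 2 separate results, and the sum may count the same reads under both names. The other 3 members were low: miR-451a, abundant in red cells, lay between 2.14 and 9.65 CPM, and both miR-144 arms were at 1.21 CPM or less. In VM cells miR-451a did not follow the sum, at 2.42 and 3.11 CPM in adult and 5.94 and 2.88 CPM in neonatal libraries. The part of such cells in the age difference of miR-211-5p was not tested. The stromal and muscle list summed to 15.7 to 50.2 CPM in adult and 60.1 to 98.4 CPM in neonatal libraries. Of its 9 members, miR-214-3p, miR-1a-3p and miR-206-3p were at 0 in all libraries, and 2 were tested. MiR-143-3p was higher in neonatal cells over both subsets (log2 fold change 1.82, edgeR adjusted p = 0.0163). MiR-10b-5p was not called there (0.73, edgeR adjusted p = 0.205), and neither of the 2 passed within VM cells. The 2 myeloid members, neither of them tested, summed to 6.44 to 15.9 CPM in adult VM, 0.990 to 4.18 CPM in neonatal VM, and 1.71 to 2.16 CPM in TN libraries. The 3 endothelial and progenitor members, all tested, summed to 158 to 192 CPM in adult VM, 105 to 140 CPM in neonatal VM, 75.1 to 131 CPM in adult TN and 86.6 CPM in neonatal TN. Under TMM scaling both sums were thus lower in neonatal than in adult VM cells, as miR-211-5p was. The sums were not read under other scalings. Of the endothelial and progenitor members, miR-126a-3p and miR-126a-5p rose in neonatal VM cells (log2 fold changes 1.55 and 1.41, edgeR adjusted p = 0.0106 and 0.00599), and miR-10a-5p had -1.42 (edgeR adjusted p = 0.0562). The part of these cells in the age difference of miR-211-5p was not tested either.

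**Figure D4:**
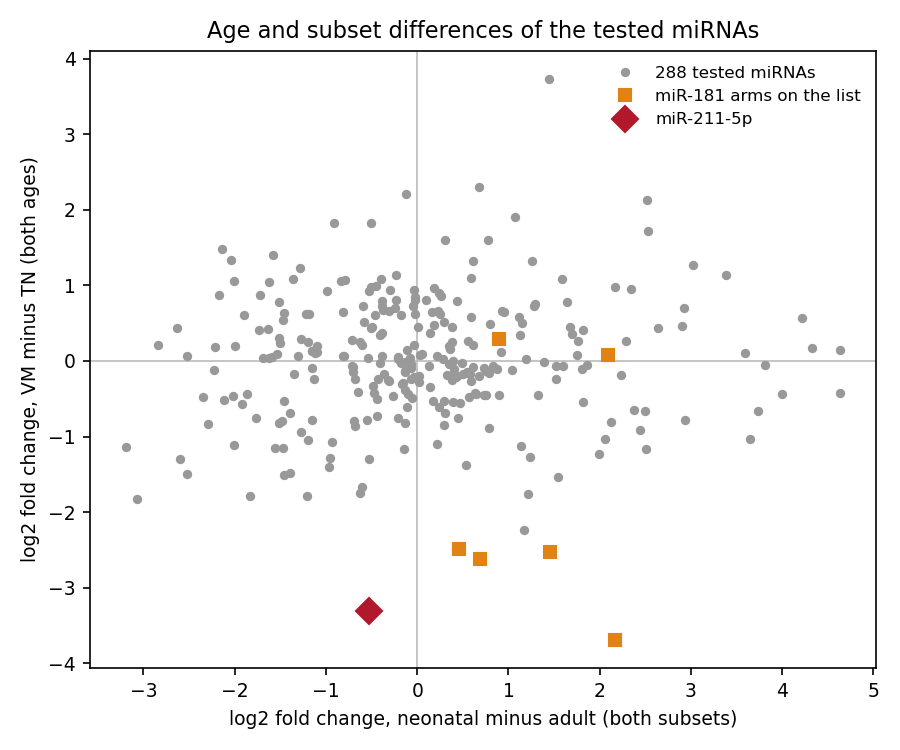
Each point is one of the 288 tested miRNAs, with its log2 fold change between neonatal and adult cells on the x axis and between VM and TN cells on the y axis. MiR-211-5p (diamond) lies near the bottom at -3.31 and at -0.53 on the age axis, whereas 4 of the 6 listed miR-181 arms (squares) combine a low place on the y axis with a positive value on the x axis.

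The miRNAs whose levels were most like those of miR-211-5p were sought among the 165 tested miRNAs whose mean level reached 50 CPM, by the root mean square difference of log2 CPM, each centred on its own mean, over the 7 libraries. The nearest was miR-181a-1-3p, with a difference of 0.776, against a median of 1.83 over the 165. It was followed by miR-181a-5p (0.790), miR-669a-5p (0.926), miR-467c-5p (1.11) and miR-181b-5p (1.14). This is a description, since all of them share the libraries and the scaling. Members of the miR-181 family tune the sensitivity of the T cell receptor in developing T cells, and the miR-467 and miR-669 members come from near-identical copies in an intron of Sfmbt2, between which reads may be split.

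The nearest miRNAs differed from miR-211-5p in how their libraries were ordered by age. MiR-181a-1-3p stood at 470 and 584 CPM in adult TN, 745 in neonatal TN, 91.4 and 98.9 in adult VM and 138 and 120.3 in neonatal VM. Its neonatal VM libraries were thus above its adult VM ones, the reverse of miR-211-5p under TMM scaling. The age difference of miR-181a-1-3p in VM cells was not called (log2 fold change 0.44, edgeR adjusted p = 0.0937). MiR-669a-5p stood at 140.4 and 173 CPM in adult TN, 66.3 in neonatal TN, 89.8 and 32.5 in adult VM and 25.2 and 14.9 in neonatal VM, with the neonatal libraries lower in both subsets. For miR-211-5p, under TMM scaling, the neonatal libraries were lower in VM cells and within the adult range in TN cells. Of the 6 miR-181 arms on the list, all tested, 6 passed as higher in neonatal cells over both subsets, where 26.4% of all tested miRNAs did, with a median log2 fold change of 1.18 against -0.05 for all tested miRNAs, among them miR-181d-5p (2.09), miR-181a-2-3p (2.17), miR-181b-5p (1.46) and miR-181c-5p (0.90). With upper quartile factors 5 of the 6 passed, against 72 of all 288. A tested arm that the list did not hold, miR-181c-3p, had a log2 fold change of 1.69 (edgeR adjusted p = 0.000105).

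**Figure D5:**
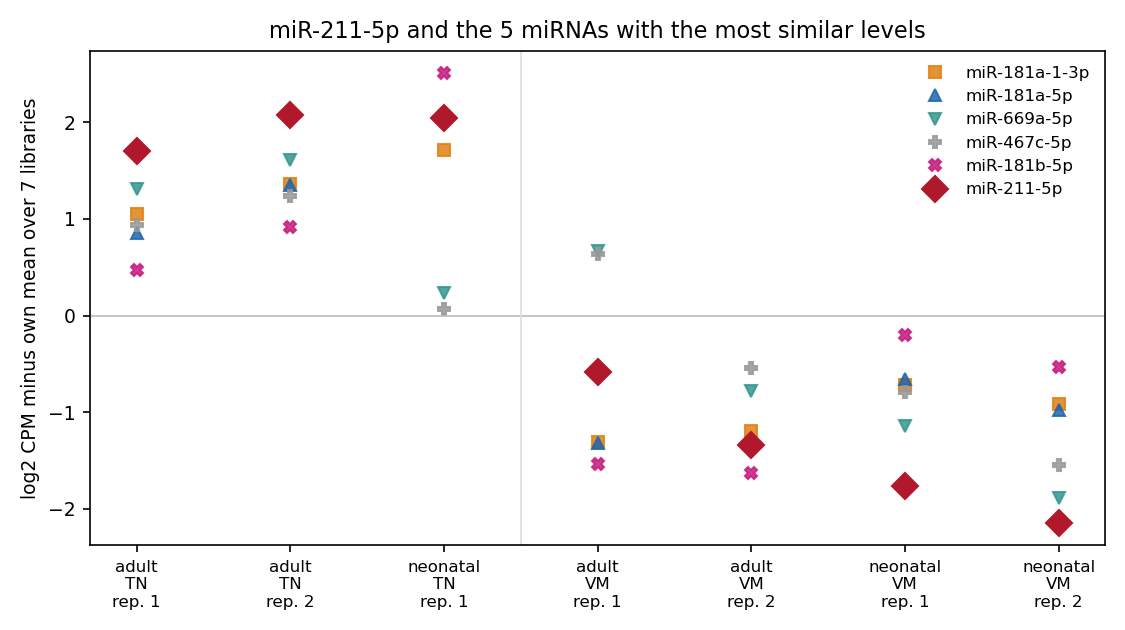
Log2 CPM of miR-211-5p (diamonds) and of the 5 miRNAs with the most similar levels, each minus its own mean over the 7 libraries. All 3 TN libraries lie above and all 4 VM libraries below the mean for miR-211-5p, and its 2 neonatal VM values are the lowest of the 6 miRNAs in those libraries.

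Other miRNAs that lie in introns of protein-coding genes were read beside miR-211-5p. Of 34 listed arms, 27 were tested. Between VM and TN cells over both ages, 4 of the 27 were higher and 1 was lower in VM cells (10.8% and 13.9% of all tested miRNAs), with a median log2 fold change of -0.02 against 0.01 for all tested miRNAs, where miR-211-5p had -3.31. With age in VM cells, 6 were higher and 7 lower in neonatal cells (22.9% and 30.9% of all tested miRNAs), with a median of 0.16 against -0.08. Scaled by library totals, 15 were higher and 5 lower there (117 and 49 of all 288), with a median of 0.67 against 0.43. Among those that fell in neonatal VM cells were miR-151-3p (-2.82) and miR-151-5p (-2.74), from Ptk2, which encodes a focal adhesion kinase, miR-139-5p (-1.95), from the phosphodiesterase gene Pde2a, and miR-361-3p (-1.84), from Chm. Each of these 4 log2 fold changes passed the edgeR test (adjusted p from 8e-07 to 1.37e-05) and was larger in size than the -1.04 of miR-211-5p. MiR-151-3p, like miR-211-5p, was higher in neonatal TN (2306 CPM) than in neonatal VM cells (435 and 375 CPM), but it was not lower in adult VM (2702 and 3037 CPM) than in adult TN cells (1514 and 1925 CPM).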

How the data were processed

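Small RNA was sequenced from 7 samples after preparation with an Illumina TruSeq kit, per the labels' protocols. The values the authors deposited are estimated counts for each mature miRNA and precursor, with fractions; 84.0% of those above 0 lay within 0.02 of a whole number. The submitters' processing notes name the build mm10, and the aligner and the counting tool are not given in the sources used here. Values were summed over the lines of a mature name and rounded to whole numbers. The quasi-likelihood test of edgeR 4.0.16 in R 4.3.3, with TMM factors and robust dispersions, was run on miRNAs reaching 10 CPM (15.8 to 32.8 counts) in 2 or more of the libraries. P-values were adjusted by Benjamini-Hochberg over all tested miRNAs of a comparison, and 0.05 was the threshold. Averages over age or subset were fitted as additive effects (4 residual degrees of freedom), all else with 1 mean per group (3).

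The members and lists were chosen with earlier results of these data known. Named were the members, their other arms, miRNAs with the same seed, the 5 nearest in level (0.5 was added to CPM before taking log2) and at most 4 per list by smallest adjusted p in an age comparison; from the marker lists, the defining and the most abundant members were named after their values were seen. The lists were intron-hosted miRNAs, miR-181 arms, and markers of neural, retinal and pigment, erythroid, myeloid, endothelial and progenitor, stromal and muscle, and T cells. Other settings were 3 scalings, 2 filters, DESeq2 1.42.0, voom of limma 3.58.1, a block for the replicate number, non-robust dispersions, the largest precursor value and each library left out. The fits of age over both subsets, in TN and in VM cells were tested on simulated data. The interaction and the subset comparisons were not. Sequences are from RefSeq, with both members matched, and gene models from GENCODE M21, all on GRCm38. Plots were made in matplotlib 3.10.9. Reads and target genes were not analysed here.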

Additional observations from a re-analysis of the deposited data

How the results depend on the processing

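The lower level of miR-211-5p in VM cells kept its direction under every setting run, with log2 fold changes of -3.39 to -3.14 over both ages. With each library left out they ran from -3.65 to -2.83. The value of -2.83 came without the neonatal TN library, where this fit rests on adult cells alone. The age difference in VM cells kept its direction throughout, at -1.15 to -0.54 (edgeR adjusted p 1.11e-06 to 0.127), and at -1.33 to -0.62 with each library left out. Leaving out a VM library left 1 library in its group, and the call was lost without neonatal VM replicate 2. The age difference of miR-211-5p in TN cells changed sign with upper quartile factors (-0.16), without a filter (-0.03) and with the replicate block (0, rounded), and ranged from -0.16 to 0.22 with libraries left out. That of miR-204-5p changed sign over both subsets with RLE factors (0.02) and library totals (0.41), in TN cells with upper quartile factors (-0.09) and in VM cells with library totals (0.17). With libraries left out it ranged from -0.37 to 0.15 over both subsets, reaching 0.01 without adult VM replicate 1, and from -0.31 to 0.59 in TN cells, reaching 0 without adult VM replicate 2. Scaled by library totals, the neonatal TN level of miR-211-5p was 1292 CPM, its neonatal VM level 95.9 CPM and that of miR-204-5p 1.47 CPM.

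Counts of calls moved by more than 1.5 times as follows. A 100 CPM filter, which tests fewer miRNAs, left 79 calls for age over both subsets, 69 for age in TN, 93 for age in VM and 41 for subset over both ages, against 155, 138, 155 and 71. The interaction had 23 calls, and 43 without a filter, 37 with DESeq2 and 15 with voom. Subset in neonatal cells had 28, and 52 with upper quartile factors and 53 without a filter. With each library left out, calls ranged from 115 to 158 for age over both subsets, 83 to 179 for age in TN, 106 to 171 for age in VM, 6 to 86 for the interaction, 18 to 111 for subset over both ages, 23 to 142 for subset in adult cells and 16 to 77 for subset in neonatal cells. The cause of these shifts was not tested. Scaling moved the split of calls: for age in VM, 66 higher and 89 lower became 117 and 49 with library totals, for age over both subsets 76 and 79 became 119 and 53, for age in TN 76 and 62 became 106 and 38 (56 and 79 with upper quartile factors), and for subset over both ages 31 and 40 became 59 and 27. For subset in neonatal cells, 9 higher and 19 lower became 21 and 14 with library totals and 38 and 14 with upper quartile factors, and for the interaction 5 and 18 became 18 and 12 with the latter. Without the neonatal TN library, age in TN, the interaction and subset in neonatal cells could not be fitted. Whether same-numbered libraries were paired is not given in the sources used here. Their deviations correlated at 0.0205, 0.140 and -0.144 between the groups with 2 libraries, which cannot decide it with so few libraries. With the replicate block, age in VM for miR-211-5p was -1.02 (edgeR adjusted p = 0.00398), and subset over both ages had 42 calls. Depth limits miR-204-5p and miR-211-3p, at 34 counts or fewer per library.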

Other observations

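The ratio of miR-181a-5p to miR-211-5p, taken from the TMM-scaled CPM of each library, was 78.2 and 85.2 in adult TN, 84.97 and 144 in adult VM, 143 in neonatal TN and 304 and 319 in neonatal VM. Both miRNAs were lower in VM cells, and the ratio of adult VM replicate 1 lay within the range of the adult TN libraries, whereas both neonatal VM libraries had a higher ratio than the neonatal TN library. The ratio was chosen after the values were seen and was not tested, and since each miRNA is captured with its own efficiency only its change between libraries can be read.

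MiR-7670-3p, which shares this seed, had 0 and 1 counts in adult TN, 4 in neonatal TN, 2 and 1 in adult VM and 6 and 2 in neonatal VM, too few to order the groups.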
